A study of Homo sapiens with 12 samples.

Results

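Homologous recombination rebuilds a broken DNA molecule from an intact copy, and the Fanconi pathway unhooks crosslinks between the strands of DNA and hands the resulting break to recombination. The 33 genes described here cover both pathways with their damage kinases and the mismatch sensor MSH6. They were chosen by name, with earlier results of these data known. Each was read from the probe set that is annotated to that gene alone and has the highest mean over the arrays. Of the 33, 29 had such a probe set, out of 19775 genes read in this way, and RBBP8, BRCA2, FANCA and FANCD2 are not analysed here. All 29 passed the filter on dim signals, which left 14280 genes for testing.

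The data come from RCC4 and UMRC2, established human kidney cancer cell lines with little FoxO1 and FoxO3 of their own, per the labels. Each was made to express stably, under puromycin selection, FoxO3 or FoxO1 fused to ERT2, a modified estrogen receptor part, or ERT2 by itself, called EV below. In the fusions the 3 sites that AKT phosphorylates were changed to alanine, and 4-hydroxytamoxifen (4OHT) moves the fused protein into the nucleus. The 6 engineered lines were FoxO3, FoxO1 and EV cells of each parent, and each received either 4OHT at 100 nM or its ethanol vehicle for 12 h. The study chose 12 h to catch early transcriptional events. Total RNA was hybridised to Affymetrix U133 Plus 2.0 arrays, with 1 array for each of the 12 combinations, so no combination has a replicate. The 12 arrays form 6 pairs, and the 4OHT level minus the vehicle level of a pair is called a response. Each construct has 2 responses, from RCC4 and UMRC2. Except in comparisons of the parent lines, the p-values below rest in part on how far construct effects differ between these lines, array noise included. For responses, the spread of each gene had 2 residual degrees of freedom. It was drawn toward the spread of genes of similar level, with 5.44 prior degrees of freedom, so the prior held most of the weight. Comparisons of the parent lines use other replicates, named where they are given. None of the p-values says anything of repeat cultures. Levels and differences are on the log2 scale of quantile-normalised intensity, where 1 unit is a 2-fold change, and errors after ± are standard errors from limma.

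In recombination the MRE11, RAD50 and NBN complex senses a break, EXO1 trims its ends, and BRCA1 with its partners helps to start the pairing with the intact copy. In the Fanconi pathway a core complex of proteins adds ubiquitin to FANCI and FANCD2 at a crosslink. Most of these genes are expressed more strongly in dividing cells, and recombination uses the sister copy made in S phase. AKT holds FoxO proteins in the cytoplasm, and nuclear FoxO proteins are known for control of cell cycle, stress and DNA damage genes.

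The fusion transcripts were read through their estrogen receptor part. Only ESR1 probe sets at least 2 log2 units above EV in the vehicle array of every fusion line were used. The median of 5 ESR1 probe sets, of 9 on the array, in the vehicle arrays was 12.49 in RCC4 FoxO3, 9.22 in RCC4 FoxO1, 13.23 in UMRC2 FoxO3 and 12.29 in UMRC2 FoxO1 cells, against 5.28 in RCC4 EV and 4.63 in UMRC2 EV cells. The probe sets were chosen by this gap, so the gap is no independent check of the constructs. EV cells, described as carrying the ERT2 part, were low at these probe sets, which were picked for being lower in EV. Whether EV cells expressed ERT2 is therefore not shown here, and 4OHT acting through ERT2 cannot be told apart from FoxO. The median deposited intensity of an array ran from 71.1 to 138.7, and the RCC4 FoxO3 array with 4OHT stood apart from the other RCC4 arrays. Its median was 74.6, against 121.2 to 138.7 in the other RCC4 arrays, and its 18 spike-in probe sets averaged 2515, against 4212 to 4699. The kidney epithelial markers PAX8, KRT8, KRT18 and CDH16 lay above the array median in all 12 arrays, PAX2 in 11, CDH6 in 10 and LHX1 in 0. PTPRC and VWF, markers of blood and endothelial cells, lay above it in 0 arrays and CDH5 was at the floor in 12, while PECAM1 and COL1A1 lay above it in 12, CD3E in 9 and PDGFRB in 1.

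After FoxO3 activation a large share of these repair genes was lower, with members in both pathways. Relative to the EV response, 12 of the 29 genes fell and 1, MRE11, rose at an adjusted p under 0.05 (limma, Benjamini-Hochberg over all 14280 genes). Over all genes tested, 10% fell and 6.61% rose, 16.6% in either direction. The 12 were the break sensor NBN, the nuclease EXO1, the kinase ATR, the BRCA1 partners BARD1 and PALB2, the strand exchange factors RAD51C, RAD51AP1 and RAD54L, the junction factor RMI1, the core complex genes FANCE and FANCG, and MSH6. The median of FoxO3 minus EV was -0.79 over the 29 genes and -0.07 over all genes. Under FoxO1, 0 of the 29 passed the same limma test, where 0.084% of all genes did. An unadjusted p under 0.05 was reached by 9 of the 29. The share of all genes at that looser threshold was not counted, so the 9 have no background beside them. The FoxO1 median was -0.26 over the 29 genes, against -0.02 over all genes. Both values are set against the same EV arrays.

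**Figure D1:**
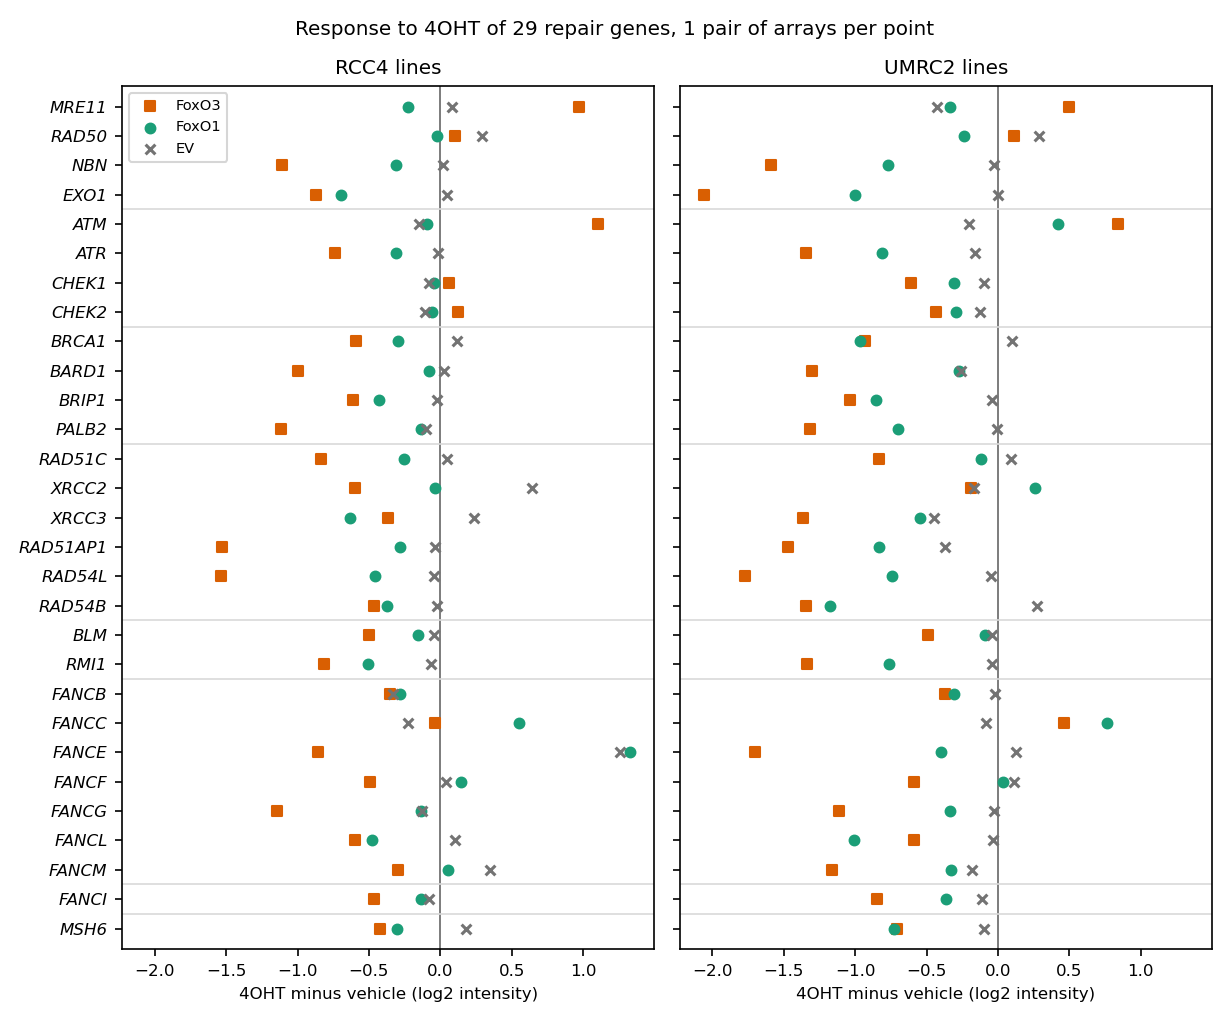
Response to 4OHT (4OHT minus vehicle, log2 intensity, x axis) of each of the 29 repair genes (y axis, grouped by role), in RCC4 cells (left) and UMRC2 cells (right). Each symbol is 1 pair of arrays (orange squares FoxO3, green circles FoxO1, grey crosses EV); the orange squares lie left of the crosses in both panels for 24 of the 29 genes.

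The same order of constructs was seen in both parent lines. Against its own vehicle, the median response of the 29 genes was -0.59 in RCC4 FoxO3, -0.23 in RCC4 FoxO1 and -0.01 in RCC4 EV cells. In UMRC2 it was -0.93 in FoxO3, -0.36 in FoxO1 and -0.04 in EV cells. The medians of all genes tested lay between -0.08 and 0.00 in these 6 pairs. Relative to EV, 24 of the 29 genes were lower in both FoxO3 pairs (38% of all genes) and 20 in both FoxO1 pairs (31.3% of all genes). In all 4 FoxO pairs, 20 were lower (20.7% of all genes). The 5 not lower in both FoxO3 pairs were MRE11, ATM, FANCC, CHEK1 and CHEK2.

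Counted by fold, more of the genes were lower in UMRC2 than in RCC4, but the test of that difference called none. In UMRC2 FoxO3 cells 14 of the 29 genes were at least 2-fold lower with 4OHT than with vehicle, where 10.9% of all genes were. In RCC4 FoxO3 cells it was 5, namely NBN, PALB2, RAD51AP1, RAD54L and FANCG, where 12.2% of all genes were. In UMRC2 FoxO1 cells it was 3, namely EXO1, RAD54B and FANCL, against a background of 4.32%. In RCC4 FoxO1 cells it was 0 (3.87% of all genes), and in EV cells it was 0 in RCC4 (2.38%) and 0 in UMRC2 (2.47%). Increases of at least 2-fold were seen for ATM in RCC4 FoxO3 cells (9.89% of all genes), for FANCE in RCC4 FoxO1 cells (4.13%) and for FANCE in RCC4 EV cells (2.81%). In UMRC2 they were seen for 0 of the 29 genes in FoxO3 cells (8.67% of all genes), 0 in FoxO1 cells (4.48%) and 0 in EV cells (3.07%). When the FoxO minus EV response of RCC4 was compared with that of UMRC2, 0 of the 29 genes passed in limma, 0 had an unadjusted p under 0.05, and 0% of all genes were called. In this test the FoxO3 and FoxO1 pairs of a line stood as its replicates, so isoform differences counted as noise. The count of 0 therefore does not show that the lines responded alike.

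Promoter sequences of 4 genes are shown because they stand for the kinds of response seen: RAD54L and RAD51AP1 were lower under FoxO3 than under EV and FoxO1, MRE11 was higher than both, and CHEK2 had a FoxO3 difference of -0.04. Each is the 250 bases before the annotated start in RefSeq, build GRCh38.p14, 5′ to 3′ on the strand of the gene. Capitals mark matches to any of 4 motifs on either strand: TTTNNCGC (resembling sites of E2F, the driver of S phase genes), GTAAACA (a FoxO site), TTTGAA (part of an element in mitotic genes) and CCAAT (bound by NF-Y). For RAD54L the window is that of the first of its start sites.
RAD54L, chr1:46247438-46247687, plus strand: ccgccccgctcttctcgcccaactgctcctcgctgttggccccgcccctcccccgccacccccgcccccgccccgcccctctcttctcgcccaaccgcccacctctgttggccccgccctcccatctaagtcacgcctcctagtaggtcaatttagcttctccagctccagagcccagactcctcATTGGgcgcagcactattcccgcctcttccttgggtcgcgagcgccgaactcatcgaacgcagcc
RAD51AP1, chr12:4538640-4538889, plus strand: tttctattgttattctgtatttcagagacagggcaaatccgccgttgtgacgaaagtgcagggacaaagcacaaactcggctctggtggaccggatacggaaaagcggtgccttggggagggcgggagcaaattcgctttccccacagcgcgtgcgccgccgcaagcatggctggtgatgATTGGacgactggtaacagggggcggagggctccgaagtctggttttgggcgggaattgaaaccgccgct
MRE11, chr11:94493845-94494094, minus strand: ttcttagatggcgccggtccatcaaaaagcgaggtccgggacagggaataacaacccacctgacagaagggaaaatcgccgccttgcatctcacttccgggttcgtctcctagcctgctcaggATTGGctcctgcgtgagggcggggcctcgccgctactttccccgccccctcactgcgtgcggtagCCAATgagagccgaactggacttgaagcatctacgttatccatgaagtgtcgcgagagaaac
CHEK2, chr22:28741821-28742070, minus strand: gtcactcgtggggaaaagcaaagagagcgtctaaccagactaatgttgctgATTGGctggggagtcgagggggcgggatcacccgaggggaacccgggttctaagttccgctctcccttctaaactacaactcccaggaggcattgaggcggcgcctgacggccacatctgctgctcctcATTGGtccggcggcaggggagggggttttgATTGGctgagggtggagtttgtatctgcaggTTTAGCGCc

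The RAD54L and RAD51AP1 windows each hold 1 CCAAT box, 65 and 70 bases before the start. MRE11 holds 2 and CHEK2 holds 3, with an E2F-like match next to the start of CHEK2. RefSeq promoter entries matched 26 of the 29 genes, with 38 start sites in all, and the 4 motifs overlapped in 0 of the 38. CCAAT was present in 19 of the 38 windows, and in 32.0% of 35116 windows of all genes. The 11 genes called lower under FoxO3 that had an entry held it in 6 of 18 windows (33.3%). The other 15 genes held it in 13 of 20 (65.0%). Windows and not genes were counted, so the 9 genes with more than 1 start site entered more than once. Some windows of CHEK1 and of MSH6 are nearly the same sequence. The gap between these shares therefore depends on repeated start sites and was not tested. TTTNNCGC was present in 10.5% of the 38 windows, against 5.92% of all windows, and TTTGAA in 7.89%, against 13.3%. The S phase markers described below held TTTNNCGC in 37.5% and CCAAT in 62.5% of their windows, and the G2 and M phase markers held TTTGAA in 38.2% and CCAAT in 79.4%. GTAAACA was found in 0 of the 38 windows, where 2.98% of all windows hold it. A match or its absence describes these letters in this window and says nothing of binding.

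Among the genes for sensing and trimming breaks, NBN and EXO1 fell under FoxO3 while MRE11 and RAD50 did not. From here on, a level with 4OHT is given against the level of the same cells with vehicle. NBN, which recruits ATM to breaks, had levels of 11.50 against 12.61 in RCC4 FoxO3 cells and 10.84 against 12.43 in UMRC2 FoxO3 cells, 12.10 against 12.41 in RCC4 FoxO1 cells and 11.66 against 12.43 in UMRC2 FoxO1 cells, and 12.57 against 12.55 in RCC4 EV cells and 12.34 against 12.37 in UMRC2 EV cells. The 4 FoxO arrays with 4OHT were the lowest of the 12 for this probe set, FoxO3 below FoxO1 in each parent line. The NBN difference from EV was -1.34 ± 0.16 under FoxO3 (adjusted p = 0.00265) and -0.53 ± 0.16 under FoxO1 (adjusted p = 0.344). Of its other 4 bright probe sets, 3 were lower under FoxO3, between -1.12 and -0.62, and a dim one gave 0.08. With all its probe sets averaged, NBN gave -0.78 and did not pass. EXO1, the nuclease for long-range trimming, stood at 8.86 against 9.73 in RCC4 FoxO3 cells and 8.23 against 10.29 in UMRC2 FoxO3 cells, 9.29 against 9.99 in RCC4 FoxO1 cells and 9.19 against 10.19 in UMRC2 FoxO1 cells, and 9.87 against 9.82 in RCC4 EV cells and 9.94 against 9.93 in UMRC2 EV cells. The FoxO arrays with 4OHT were again the lowest of each parent line, FoxO3 below FoxO1. It fell by 1.49 ± 0.31 under FoxO3 (adjusted p = 0.0173), with -2.06 in UMRC2 and -0.92 in RCC4, and FoxO1 gave -0.87 ± 0.31 (adjusted p = 0.406).

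MRE11, the nuclease of the same complex as NBN, was the only one of the 29 called higher under FoxO3. Its levels were 10.73 against 9.77 in RCC4 FoxO3 cells and 10.09 against 9.59 in UMRC2 FoxO3 cells, 9.66 against 9.89 in RCC4 FoxO1 cells and 8.95 against 9.28 in UMRC2 FoxO1 cells, and 9.91 against 9.83 in RCC4 EV cells and 9.34 against 9.77 in UMRC2 EV cells. The FoxO3 arrays with 4OHT were the highest of each parent line. The difference from EV was 0.91 ± 0.23 (adjusted p = 0.0329), and FoxO1 gave -0.11 ± 0.23 (adjusted p = 0.922). The UMRC2 part of it, 0.93, holds a response of -0.43 in the EV pair. A dimmer MRE11 probe set, above the array median in 11 arrays, gave -0.53 under FoxO3. The call was lost when probe sets were averaged (0.13), with values as deposited (0.51) or when arrays were scaled to a common median (0.80). It also rested on each FoxO3 and EV pair: without 1 of them the difference was between 0.80 and 1.02. RAD50, the structural partner, had levels between 10.30 and 10.90 in the 12 arrays, and FoxO3 minus EV was -0.18 ± 0.19 (adjusted p = 0.581).

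**Figure D2:**
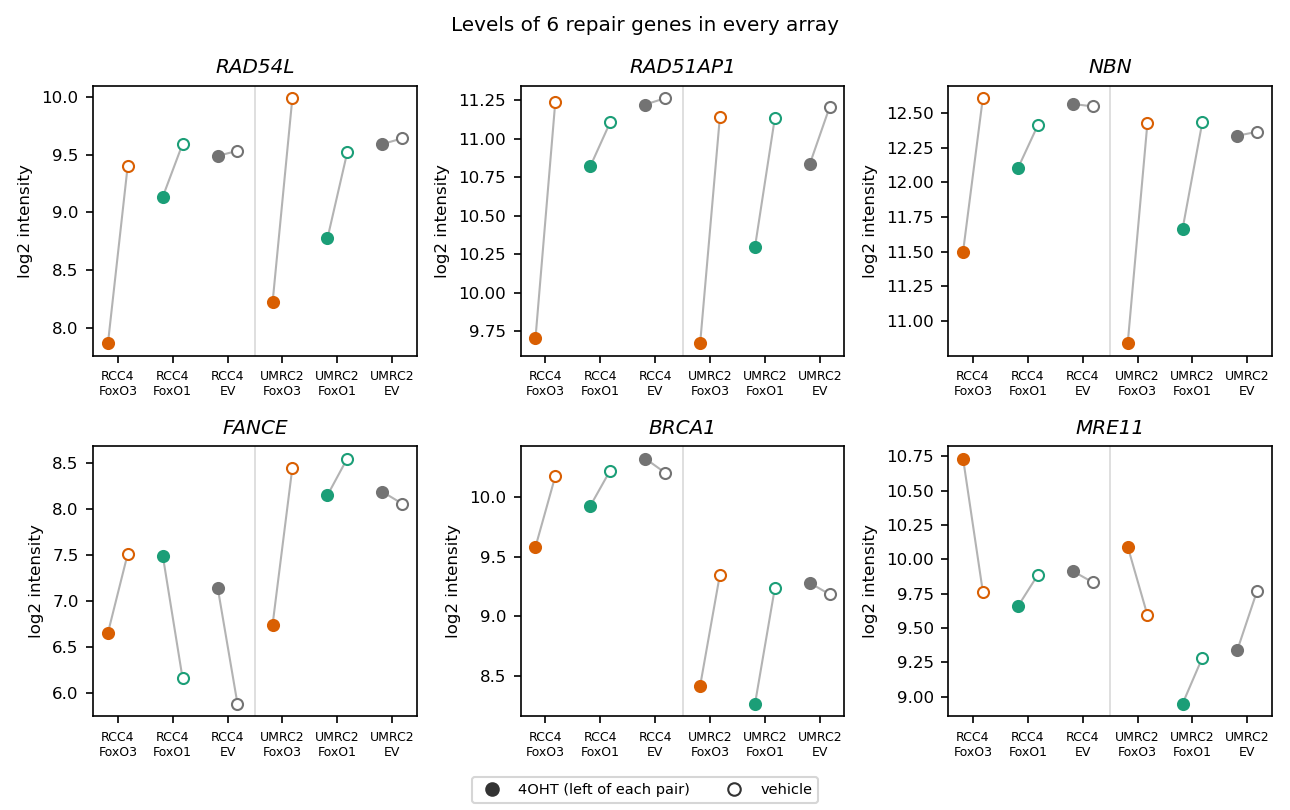
Level (log2 intensity, y axis) of 6 repair genes in all 12 arrays, by engineered line (x axis), with 4OHT as filled symbols to the left and vehicle as open symbols to the right of each joined pair. RAD54L, RAD51AP1 and NBN have their lowest filled symbols in the FoxO3 lines, while MRE11 has its highest there.

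Of the 4 damage kinases, 1, ATR, was called under FoxO3, where 16.6% of all genes were called. The kinases were not tested against each other. ATR, which responds to stalled replication forks, fell by 0.95 ± 0.22 relative to EV under FoxO3 (adjusted p = 0.0261), with levels of 9.70 against 10.43 in RCC4 FoxO3 cells and 8.64 against 9.98 in UMRC2 FoxO3 cells. Its EV levels were 10.40 against 10.41 in RCC4 EV cells and 9.96 against 10.12 in UMRC2 EV cells. ATM, which responds to breaks, had values of the opposite sign that did not pass the threshold (FoxO3 minus EV 1.15 ± 0.33, adjusted p = 0.0515). The ATM levels were 9.02 against 7.91 in RCC4 FoxO3 cells and 8.64 against 7.80 in UMRC2 FoxO3 cells, 8.26 against 8.35 in RCC4 FoxO1 cells and 8.35 against 7.92 in UMRC2 FoxO1 cells, and 8.16 against 8.32 in RCC4 EV cells and 7.96 against 8.17 in UMRC2 EV cells. The FoxO3 arrays with 4OHT were the highest of the 12 for ATM. Of its 4 other bright probe sets, 2 gave 1.32 and 0.64 and 2 gave -0.14 and -0.25. CHEK1, the kinase downstream of ATR, gave -0.19 ± 0.23 (adjusted p = 0.653), and CHEK2, downstream of ATM, gave -0.04 ± 0.28 (adjusted p = 0.955). The CHEK1 levels ran from 9.50 to 10.35 over the 12 arrays, with the lowest in the UMRC2 FoxO3 array with 4OHT. Of its other bright probe sets, 1 gave -0.55 and 1 gave -0.10.

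Among BRCA1 and its partners, 2 of 4 fell under FoxO3 and all 4 had negative values. BARD1, which forms a ubiquitin ligase with BRCA1, had levels of 9.80 against 10.79 in RCC4 FoxO3 cells and 8.47 against 9.78 in UMRC2 FoxO3 cells, 10.66 against 10.74 in RCC4 FoxO1 cells and 9.76 against 10.04 in UMRC2 FoxO1 cells, and 10.83 against 10.80 in RCC4 EV cells and 9.44 against 9.69 in UMRC2 EV cells. The FoxO3 array with 4OHT was the lowest of each parent line. Its FoxO3 difference from EV was -1.04 ± 0.20 (adjusted p = 0.0132), while the FoxO1 difference was -0.06 ± 0.20 (adjusted p = 0.952). PALB2, the bridge between BRCA1 and BRCA2, had levels of 7.82 against 8.94 in RCC4 FoxO3 cells and 7.50 against 8.81 in UMRC2 FoxO3 cells, and 8.89 against 8.996 in RCC4 EV cells and 8.92 against 8.93 in UMRC2 EV cells. It fell by 1.16 ± 0.29 (adjusted p = 0.0336). BRCA1 itself missed the threshold under FoxO3 (-0.87 ± 0.25, adjusted p = 0.0546), and FoxO1 gave a value close to it (-0.74 ± 0.25, adjusted p = 0.384). Its levels were 9.58 against 10.17 in RCC4 FoxO3 cells and 8.42 against 9.35 in UMRC2 FoxO3 cells, 9.93 against 10.22 in RCC4 FoxO1 cells and 8.27 against 9.23 in UMRC2 FoxO1 cells, and 10.32 against 10.20 in RCC4 EV cells and 9.28 against 9.18 in UMRC2 EV cells. In UMRC2 both FoxO arrays with 4OHT lay below all other arrays, and in RCC4 the differences were smaller. BRIP1, a helicase that binds BRCA1, gave -0.79 ± 0.24 under FoxO3 (adjusted p = 0.0626) and -0.61 ± 0.24 under FoxO1 (adjusted p = 0.449).

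The genes that assist strand exchange gave 3 of the 12 decreases. RAD54L, a motor protein that works in strand exchange, had levels of 7.86 against 9.40 in RCC4 FoxO3 cells and 8.22 against 9.99 in UMRC2 FoxO3 cells, 9.14 against 9.59 in RCC4 FoxO1 cells and 8.78 against 9.52 in UMRC2 FoxO1 cells, and 9.49 against 9.53 in RCC4 EV cells and 9.59 against 9.64 in UMRC2 EV cells. The 2 FoxO3 arrays with 4OHT were the lowest of the 12, the FoxO1 arrays with 4OHT came next, and the other 8 lay between 9.40 and 9.99. RAD54L fell by 1.61 ± 0.24 relative to EV under FoxO3 (adjusted p = 0.00516), and FoxO1 gave -0.55 ± 0.24 (adjusted p = 0.499). RAD51AP1, which stimulates strand exchange, had levels of 9.71 against 11.24 in RCC4 FoxO3 cells and 9.67 against 11.14 in UMRC2 FoxO3 cells, 10.82 against 11.11 in RCC4 FoxO1 cells and 10.30 against 11.13 in UMRC2 FoxO1 cells, and 11.22 against 11.26 in RCC4 EV cells and 10.84 against 11.21 in UMRC2 EV cells. Here too the FoxO3 arrays with 4OHT were the lowest of the 12. Its FoxO3 difference was -1.30 ± 0.21 (adjusted p = 0.00645). RAD51C, which acts early in strand exchange, had levels of 9.86 against 10.70 in RCC4 FoxO3 cells and 9.69 against 10.52 in UMRC2 FoxO3 cells, and 10.76 against 10.72 in RCC4 EV cells and 10.33 against 10.24 in UMRC2 EV cells, and fell by 0.90 ± 0.19 (adjusted p = 0.0178).

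The other 3 of this role did not pass. RAD54B, a relative of RAD54L, gave -1.03 ± 0.32 under FoxO3 (adjusted p = 0.0715) and -0.90 ± 0.32 under FoxO1 (adjusted p = 0.414). The FoxO3 value was -1.62 in UMRC2 and -0.44 in RCC4, so most of it came from UMRC2. XRCC3 (-0.76 ± 0.42, adjusted p = 0.279) and XRCC2 (-0.63 ± 0.37, adjusted p = 0.308), which both act in strand exchange, had wider errors. XRCC2 was -1.24 in RCC4 and -0.02 in UMRC2, and its probe set is of the kind whose probes can match other transcripts.

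**Figure D3:**
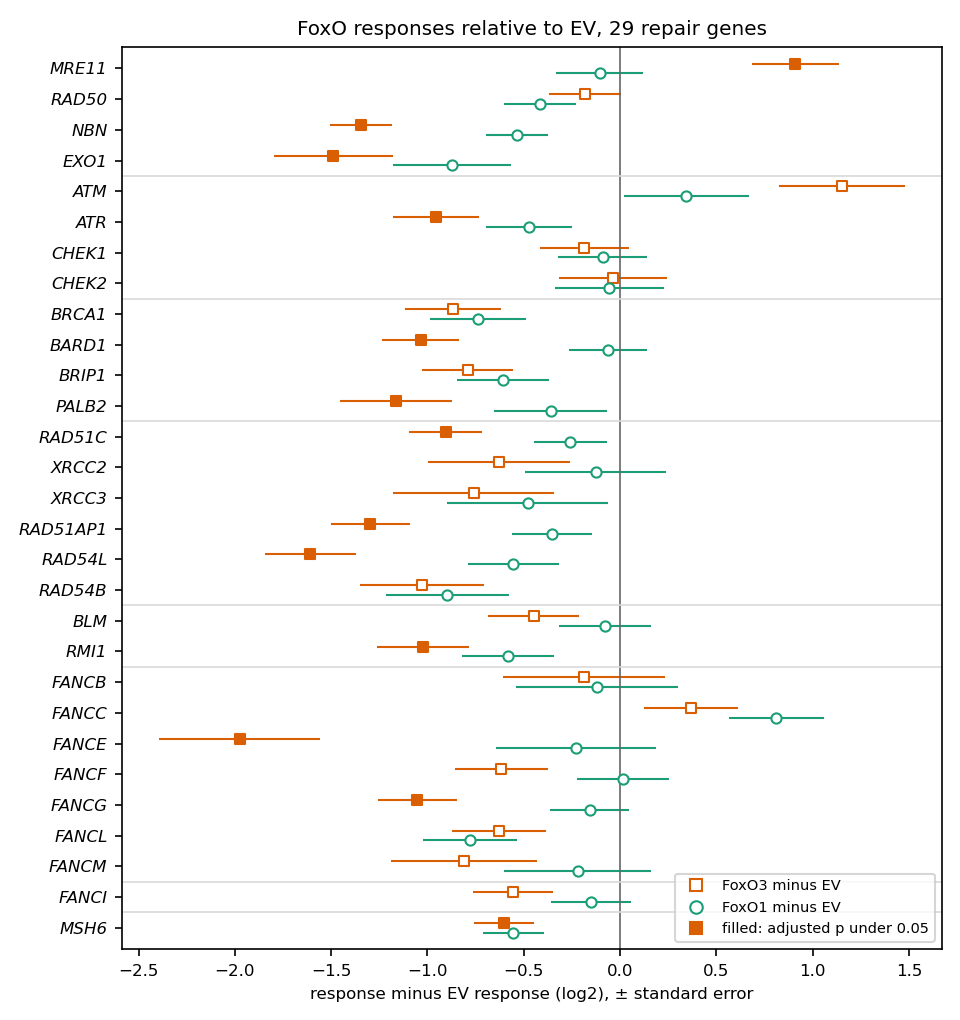
Response relative to EV (log2, x axis) of the 29 repair genes (y axis, grouped by role) for FoxO3 (orange squares, upper of each pair) and FoxO1 (green circles, lower). Bars are ± 1 standard error from limma and filled symbols have an adjusted p under 0.05. The 13 filled symbols are all FoxO3, with FANCE lowest at -1.98 and MRE11 the only one above 0.

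BLM and RMI1 belong to a complex that separates entangled DNA molecules at the end of recombination. RMI1 fell by 1.02 ± 0.24 under FoxO3 (adjusted p = 0.0264), with levels of 9.31 against 10.12 in RCC4 FoxO3 cells and 8.28 against 9.61 in UMRC2 FoxO3 cells, and 10.14 against 10.21 in RCC4 EV cells and 9.47 against 9.51 in UMRC2 EV cells. FoxO1 gave -0.58 ± 0.24 for RMI1 (adjusted p = 0.48). The helicase gene BLM gave -0.45 ± 0.24 under FoxO3 (adjusted p = 0.257), the same value of -0.45 in each parent line. MSH6, which recognises mismatched bases, had levels of 11.19 against 11.61 in RCC4 FoxO3 cells and 10.77 against 11.48 in UMRC2 FoxO3 cells, 11.34 against 11.64 in RCC4 FoxO1 cells and 10.82 against 11.55 in UMRC2 FoxO1 cells, and 11.67 against 11.49 in RCC4 EV cells and 11.39 against 11.50 in UMRC2 EV cells. The FoxO arrays with 4OHT were the lowest of each parent line. Its values were close between constructs: -0.60 ± 0.16 under FoxO3 (adjusted p = 0.0396) and -0.55 ± 0.16 under FoxO1 (adjusted p = 0.321), each lower than EV in both lines. The other bright MSH6 probe set gave -0.72 under FoxO3 and -0.62 under FoxO1. The FoxO3 call was lost when probe sets were averaged (-0.07), when arrays were scaled to a common median (-0.68) and without any given one of the 6 pairs. That average takes in a probe set at the floor and a dim probe set that gave 1.04.

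Of the 7 measured genes of the Fanconi core complex, 2 fell under FoxO3. FANCG, a scaffold of the complex, had levels of 9.56 against 10.70 in RCC4 FoxO3 cells and 8.78 against 9.89 in UMRC2 FoxO3 cells, 10.75 against 10.88 in RCC4 FoxO1 cells and 9.53 against 9.87 in UMRC2 FoxO1 cells, and 10.69 against 10.82 in RCC4 EV cells and 9.75 against 9.78 in UMRC2 EV cells. The FoxO3 array with 4OHT was the lowest of each parent line. It fell by 1.05 ± 0.21 under FoxO3 (adjusted p = 0.0141), with -1.02 in RCC4 and -1.09 in UMRC2, while FoxO1 gave -0.16 ± 0.21 (adjusted p = 0.861). FANCE, which connects the complex to FANCD2, had the largest FoxO3 difference of the 29 genes (-1.98 ± 0.42, adjusted p = 0.0185). Its levels were 6.66 against 7.51 in RCC4 FoxO3 cells and 6.74 against 8.45 in UMRC2 FoxO3 cells, 7.49 against 6.16 in RCC4 FoxO1 cells and 8.15 against 8.55 in UMRC2 FoxO1 cells, and 7.14 against 5.89 in RCC4 EV cells and 8.19 against 8.06 in UMRC2 EV cells. The RCC4 part of that difference, -2.12, holds an increase of 1.26 in the EV pair itself, and the RCC4 FoxO3 response alone was -0.86. FANCE was also the only one of the 29 with an unadjusted p under 0.05 for 4OHT in EV cells (0.69 ± 0.30, adjusted p = 1). It reached the array median in 9 of the 12 arrays.

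The rest of the core complex did not pass the test. FANCM, the motor that finds the crosslink, gave -0.81 ± 0.38 under FoxO3 (adjusted p = 0.206). Its other bright probe sets gave -0.77 and 0.47. FANCL, the ubiquitin ligase of the complex, gave -0.63 ± 0.24 under FoxO3 (adjusted p = 0.131) and -0.78 ± 0.24 under FoxO1 (adjusted p = 0.354). FANCF, an adaptor, gave -0.62 ± 0.24 under FoxO3 (adjusted p = 0.133) and 0.01 ± 0.24 under FoxO1. FANCB gave -0.19 ± 0.42 (adjusted p = 0.815) from the probe set used, and its 3 dimmer probe sets gave -0.43, -1.74 and -1.21. FANCC stood out by its sign. Its levels were 8.90 against 8.93 in RCC4 FoxO3 cells and 9.67 against 9.20 in UMRC2 FoxO3 cells, 9.30 against 8.75 in RCC4 FoxO1 cells and 9.71 against 8.95 in UMRC2 FoxO1 cells, and 8.95 against 9.17 in RCC4 EV cells and 9.18 against 9.26 in UMRC2 EV cells. The UMRC2 FoxO arrays with 4OHT were the highest of the 12. FoxO3 gave 0.37 ± 0.25 (adjusted p = 0.373) and FoxO1 gave 0.81 ± 0.25 (adjusted p = 0.345), with all 4 FoxO pairs above EV. FANCI, a target of the core complex, gave -0.56 ± 0.21 under FoxO3 (adjusted p = 0.117), and its other probe sets gave -0.64 and -0.60.

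FoxO3 and FoxO1 were compared with each other directly, a contrast in which the EV arrays enter only through the shared variance. Under FoxO3, MRE11 was higher than under FoxO1 (1.01 ± 0.23, adjusted p = 0.0457), and NBN (-0.81 ± 0.16, adjusted p = 0.0335), BARD1 (-0.97 ± 0.20, adjusted p = 0.0363), RAD51AP1 (-0.94 ± 0.21, adjusted p = 0.0435) and RAD54L (-1.05 ± 0.24, adjusted p = 0.0474) were lower. These are 1 of 29 higher and 4 of 29 lower, where 2.17% of all genes were higher, 3.64% lower and 5.81% either. FANCG (-0.89 ± 0.21, adjusted p = 0.051) and FANCE (-1.75 ± 0.42, adjusted p = 0.0553) missed the threshold. For MSH6 (-0.05 ± 0.16), BRCA1 (-0.13 ± 0.25), BRIP1 (-0.18 ± 0.24), RAD54B (-0.13 ± 0.32) and FANCL (0.15 ± 0.24) the isoforms gave close values, and no difference was detected. The median of FoxO3 minus FoxO1 was -0.44 over the 29 genes and -0.06 over all genes. The FoxO3 lines also carried more fusion transcript by the ESR1 probe sets, by the levels given above, and the part of this in the isoform difference was not tested. All 5 calls were lost without the RCC4 FoxO1 pair or without the UMRC2 FoxO1 pair, and 1 was left without the RCC4 FoxO3 pair or the UMRC2 FoxO3 pair.

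With both isoforms averaged against EV, 5 of the 29 genes were lower and 0 higher, where 4.7% of all genes were lower, 3.08% higher and 7.78% either. They were NBN (-0.94 ± 0.14, adjusted p = 0.0112), RAD54L (-1.08 ± 0.21, adjusted p = 0.024), RAD51AP1 (-0.83 ± 0.18, adjusted p = 0.0359), EXO1 (-1.18 ± 0.27, adjusted p = 0.0405) and MSH6 (-0.58 ± 0.14, adjusted p = 0.0464). The median was -0.58 over the 29 genes, against -0.05 over all genes. In the runs named next, fewer of all genes were called too. Leaving out the UMRC2 EV pair gave 0 calls. Dropping the UMRC2 FoxO1 pair gave 1, dropping the RCC4 EV pair gave 2 and dropping the RCC4 FoxO1 pair gave 3.

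The number of FoxO3 calls changed with the settings and with the pairs used, among all genes as among the 29. The share of the 29 called was near that of all genes without the UMRC2 EV or UMRC2 FoxO3 pair. It was above that share without the RCC4 EV or RCC4 FoxO3 pair. With a constant prior variance, or with no filter on dim genes, 0 of the 29 genes passed, and 0 of all genes did. Leaving out the UMRC2 EV pair gave 3 calls, dropping the RCC4 EV pair gave 6 and dropping the UMRC2 FoxO3 pair gave 6. Without the RCC4 FoxO3 pair, whose 4OHT array stood apart as deposited, 9 were left. NBN, RAD51AP1 and RAD54L passed without any given one of the 6 pairs.

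Of 46 further recombination and Fanconi genes, 11 fell and 2 rose under FoxO3, with a median of -0.30, where 10% of all genes fell and 6.61% rose. UBE2T, the ubiquitin-conjugating enzyme that works with FANCL, fell by 2.22 ± 0.17 (adjusted p = 0.00103), and USP1, which removes that ubiquitin, fell by 0.99 ± 0.14 (adjusted p = 0.00451). UBE2T had levels of 9.37 against 11.56 in RCC4 FoxO3 cells and 8.97 against 11.36 in UMRC2 FoxO3 cells, 11.44 against 11.75 in RCC4 FoxO1 cells and 11.09 against 11.43 in UMRC2 FoxO1 cells, and 11.56 against 11.55 in RCC4 EV cells and 11.34 against 11.49 in UMRC2 EV cells. FIGNL1, which acts in recombination, fell by 1.03 ± 0.25 (adjusted p = 0.0281). RPA3, a subunit of the protein that coats exposed strands, gave 0.19 (adjusted p = 0.499), and RMI2, a partner of RMI1, gave -0.28 (adjusted p = 0.502).

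End joining is the other main route of break repair. Of 11 such genes tested, 1 fell and 1 rose under FoxO3, with a median of -0.27, against 10% of all genes lower and 6.61% higher. The break-end binders XRCC5 and XRCC6 gave -0.22 (adjusted p = 0.214) and -0.32 (adjusted p = 0.0672), the kinase gene PRKDC gave -0.54 (adjusted p = 0.0611) and TP53BP1, which holds back end trimming, gave 0.01 (adjusted p = 0.983). Of 24 excision repair genes, 4 fell and 2 rose, with a median of -0.36, beside the same shares of all genes. Under FoxO1, 0 genes of each of these lists passed.

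Cell cycle markers, also listed with earlier results of these data known, fell alongside the repair genes. Under FoxO3, 28 of 34 S phase markers fell and 0 rose (median -1.29), and 26 of 30 G2 and M phase markers fell and 0 rose (median -1.17). MCM2, a subunit of the replicative helicase, fell by 2.08 (adjusted p = 0.0015), PCNA, the sliding clamp of replication, fell by 1.62 (adjusted p = 0.00375), and CDC20, an activator of mitotic exit, fell by 2.41 (adjusted p = 0.00103). CCNB1, cyclin B1, fell by 1.73 (adjusted p = 0.0015), while CCNE2, cyclin E2, gave -0.63 (adjusted p = 0.396) and E2F1 gave -0.24 (adjusted p = 0.614). Relative to EV, the S phase median was -1.29 in RCC4 FoxO3, -1.44 in UMRC2 FoxO3, -0.30 in RCC4 FoxO1 and -0.54 in UMRC2 FoxO1 cells. The G2 and M phase median was -1.20, -1.24, 0.09 and -0.03 in the same order. The 29 repair genes had medians of -0.64, -0.92, -0.30 and -0.31 in that order. Fewer cells in S, G2 or M phase and less transcript per cell cannot be told apart in these bulk samples, and the part of the cell cycle markers in the repair gene results was not tested. Of 6 kidney epithelial markers tested, 2 fell and 0 rose under FoxO3 (median -1.20), and of 3 markers of other cell types 0 passed (median 0.01). CCND1, cyclin D1, which the study used as a known FoxO target, fell by 2.58 under FoxO3 (adjusted p = 0.0015), and FoxO1 gave -1.99 (adjusted p = 0.0512).

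**Figure D4:**
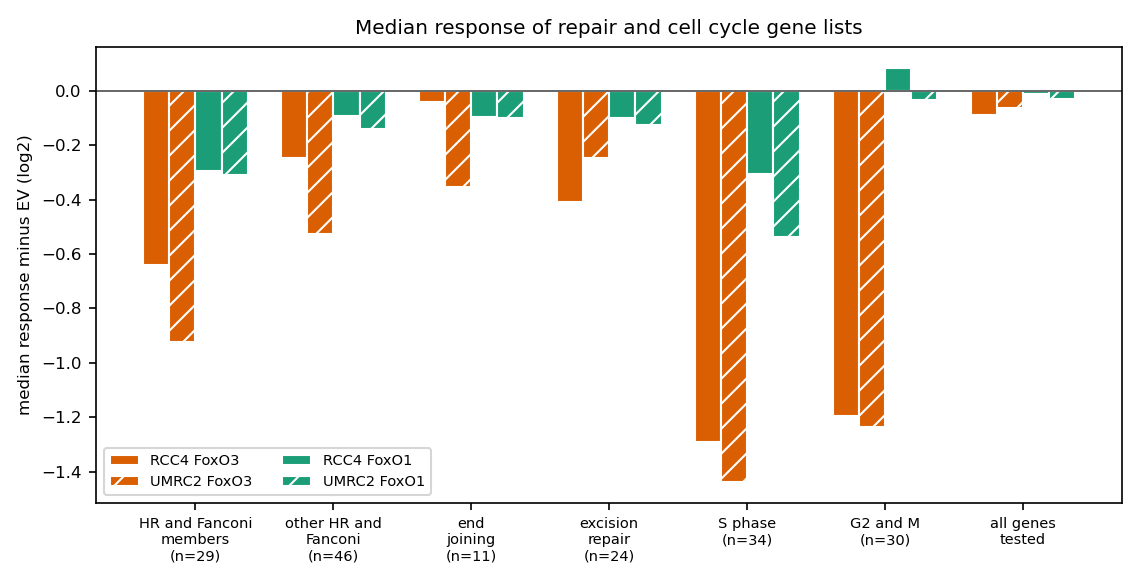
Median response relative to EV (log2, y axis) of 6 gene lists and of all genes tested (x axis, with the number of genes), for RCC4 FoxO3, UMRC2 FoxO3, RCC4 FoxO1 and UMRC2 FoxO1 cells. Bars start at 0 and each is a median over genes of 1 line, with no error bar; under FoxO3 the repair members (-0.64 and -0.92) lie between all genes and the S phase markers (-1.29 and -1.44).

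In the vehicle arrays, fusion lines minus EV gave 0 calls among the 29 genes in limma, with 1 gene, CHEK2, at an unadjusted p under 0.05 (-0.37 ± 0.13), and 0% of all genes. ESR1, far brighter in the fusion lines, was among the genes not called, so the count of 0 does not show that the lines were alike. The response of EV cells to 4OHT gave 0 calls, with 1 gene, FANCE, at an unadjusted p under 0.05, and 0% of all genes. RCC4 minus UMRC2 in the vehicle arrays, with the 3 engineered lines of each parent as its replicates, gave 9 of 29 higher and 4 of 29 lower, where 26.6% of all genes were higher and 23.6% lower. The share among the 29 genes, 44.8%, was close to the 50.3% of all genes called in either direction.

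Genes higher in RCC4 included RAD54B (1.18 ± 0.10, adjusted p = 0.000172), FANCG (0.96 ± 0.09, adjusted p = 0.000199), BRCA1 (0.94 ± 0.10, adjusted p = 0.000326) and BARD1 (0.94 ± 0.10, adjusted p = 0.000457). RAD54B stood at 10.52, 10.78 and 10.48 in RCC4 FoxO3, FoxO1 and EV cells, against 9.54, 9.44 and 9.24 in the UMRC2 lines in that order. FANCL (0.78), RMI1 (0.59), CHEK2 (0.44), ATR (0.41) and RAD51C (0.39) were higher too. FANCE (-1.83 ± 0.32, adjusted p = 0.00339), FANCI (-0.93 ± 0.08, adjusted p = 0.000212), FANCF (-0.87 ± 0.13, adjusted p = 0.00151) and BRIP1 (-0.54 ± 0.10, adjusted p = 0.00517) were lower. FANCE stood at 7.51, 6.16 and 5.89 in RCC4 FoxO3, FoxO1 and EV cells, against 8.45, 8.55 and 8.06 in the UMRC2 lines, so the parents do not overlap but the RCC4 lines spread widely. The vehicle levels of NBN, RAD51AP1, PALB2 and MSH6 differed between the parents by 0.11 or less, and no difference was detected. As deposited, without a common scale, RCC4 arrays were brighter by a median of 0.78 over all genes, and 25 of the 29 genes were then called higher and 1 lower. Of all genes tested in that run, 10551 of 14690 were called in either direction.

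**Figure D5:**
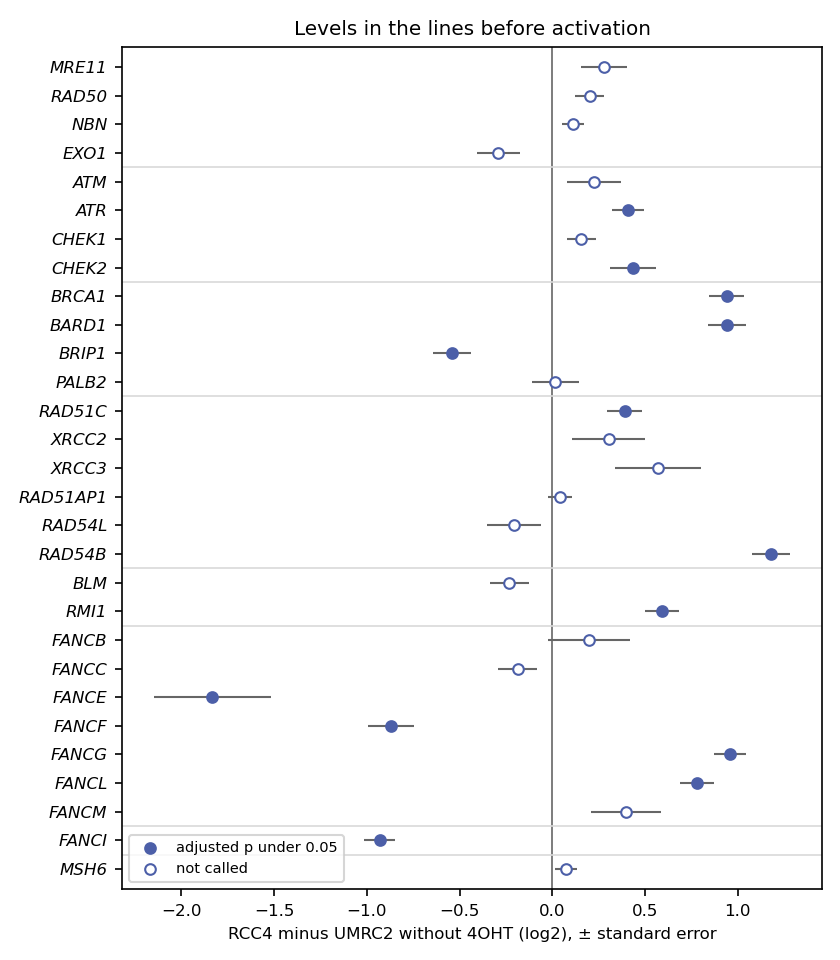
Difference in level between parent lines without 4OHT (RCC4 minus UMRC2, log2, x axis) for the 29 repair genes (y axis, grouped by role). Bars are ± 1 standard error from limma over 3 engineered lines per parent; 13 filled symbols have an adjusted p under 0.05, from FANCE at -1.83 to RAD54B at 1.18.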

How the data were processed

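The 12 arrays, 1 for each of 2 cell lines, 3 constructs and 2 treatments, were grouped by the labels. The authors deposited an intensity for each probe set, made with MAS5 per the submitters' processing notes; version and scaling target are not given in the sources used here. Here arrays were quantile-normalised, values under the 20th percentile (intensity 18.4, log2 4.20) were raised to it, and log2 was taken. Of 54675 probe sets, 41091 had 1 symbol. Genes reaching the array median (log2 6.67) in at least 2 arrays were tested. limma 3.58.1 (R 4.3.3) fitted the responses on construct and parent line, leaving 2 residual degrees of freedom, with the prior variance trended on a gene's mean level (prior degrees of freedom 5.44, and 4.31 for the vehicle arrays). Two-sided p-values were adjusted by Benjamini-Hochberg and called at 0.05. In simulated data the FoxO3 minus EV test found 73.5% of genes shifted by log2 2, and 25% at log2 1. The 33 members, the other lists and the further genes named were chosen with earlier results of these data known. Alternatives covered scaling, floor, filter, probe set, prior, the line term and leaving out each pair. The number of arrays limits the precision.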

Additional observations from a re-analysis of the deposited data

Results flagged for a closer look

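CHEK1 and CHEK2 stood on opposite sides of EV in the parent lines. Relative to EV, CHEK1 was 0.14 in RCC4 FoxO3 and 0.03 in RCC4 FoxO1 cells, and -0.51 in UMRC2 FoxO3 and -0.21 in UMRC2 FoxO1 cells. CHEK2 was 0.23 in RCC4 FoxO3 and 0.05 in RCC4 FoxO1 cells, and -0.30 in UMRC2 FoxO3 and -0.16 in UMRC2 FoxO1 cells. The RCC4 minus UMRC2 difference of the FoxO response was 0.447 for CHEK1 and 0.377 for CHEK2, and the limma test of that difference gave an adjusted p of 1 for each. That test takes the FoxO3 and FoxO1 pairs of a line as its replicates. Such a split was shown by 14.1% of all genes tested, and by 2 of the 29 repair genes.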

How the results depend on the processing

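FoxO1 minus EV, EV with 4OHT, FoxO minus EV between the parent lines and the fusion lines without 4OHT gave 0 calls among the 29 genes under each alternative run. FoxO3 minus EV gave 13 calls, and 3 with the values as deposited, 0 with no filter, 0 with a constant prior variance and 3 to 12 over the runs that left out 1 pair. FoxO minus EV gave 5, and 0 as deposited, 0 with no filter, 8 where the median had to be reached in all 12 arrays, 2 with the mean of all probe sets, 0 with a constant prior variance, 2 with no parent line term and 0 to 6 without 1 pair. FoxO3 minus FoxO1 gave 5, and 0 as deposited, 1 with common median scaling, 0 with no filter, 0 with the mean of all probe sets, 0 with a constant prior variance, 2 with no parent line term and 0 to 4 without 1 pair. RCC4 minus UMRC2 gave 13 and 26 as deposited, where 7179 of 14280 and 10551 of 14690 of all genes were called. No called gene of FoxO3 minus EV or FoxO3 minus FoxO1 reversed under the scalings, floor, filters and probe set rule or without 1 pair. Genes of the other comparisons were followed as counts, and why counts moved was not tested. The counts over all genes moved as well. For FoxO3 minus EV they were 2377 of 14280 in the main run and 579 of 14690 as deposited. For FoxO minus EV they were 1111 and 180, and for FoxO3 minus FoxO1 830 and 45. With no filter or a constant prior variance they were 0 in each of these comparisons. As deposited, the median of FoxO3 minus EV was -0.42 over all genes and -1.12 over the 29. With common median scaling it was -0.14 and -0.83, so the median of the 29 genes stayed below that of all genes. The difference between parent lines in the FoxO response could not be fitted without an EV pair. The responses are differences within vehicle and 4OHT pairs, with the parent line as a block, and the values with no parent line term are those without the replicate block.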
